A study of Rattus norvegicus with 6 samples.

Results

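Of 9996 annotated CHH regions that differed between stressed and control rats in hippocampal brain microvascular endothelial cells (BMECs), 3507 lay in introns and touched no promoter, exon, untranslated region, transcription start or transcription end. These intron-only regions were taken by joining all annotation rows of a region and keeping CHH regions with an intron row and none of the other gene features. A further 581 CHH regions had a promoter, exon or other such row, and 5908 had no gene feature. The whole annotation table held 24862 regions in the CG, CHG and CHH contexts.

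BMECs line the capillaries of the brain and form the blood-brain barrier. They were sorted from the hippocampus of adult male Sprague-Dawley rats as CD45-/CD31+ cells, a gate that removes leukocytes and keeps cells with the endothelial surface protein CD31. The 3 Ctrl samples came from unstressed rats and the 3 CUMS samples from rats put through 8 weeks of chronic unpredictable mild stress (restraint, food and water deprivation, cage tilt, wet bedding, cold swim, continuous light). The study asked how chronic stress alters DNA methylation in these cells. No expression was measured in these libraries, so the gate could not be checked against marker levels.

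Each region carried only 1 level for each group, made by the authors from the 3 samples, with no value per sample and no coverage. No SD, interval or test could therefore be given, the read depth behind a level is unknown, and all comparisons below are descriptions. A level is the authors' mean methylation of a region in a group, in percent, and how reads were combined into it is not stated. A difference is CUMS minus Ctrl in percentage points. A region is called hypermethylated when CUMS is the higher group and hypomethylated when it is the lower. Coordinates are on mRatBN7.2 (rn7).

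CHH sites are cytosines followed by 2 bases of which neither is guanine. Methylation at CG sites is copied to the new strand by DNMT1 when a cell divides, whereas CHH methylation has no such copying route in mammals and is placed anew by DNMT3A and DNMT3B. In the brain it builds up in neurons after birth, and most other somatic cells carry little. Introns are transcribed but spliced out, and they hold many transposable elements as well as regulatory sequence.

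Most intron-only regions were more methylated in CUMS. Of the 3507 regions, 2709 were hypermethylated and 798 hypomethylated, so 77.2% were higher in CUMS against 78.5% of all 9996 annotated CHH regions. The share was 79.2% both in CHH regions with a promoter or exon row and in those with no gene feature, so the direction of the intron-only regions was close to that of the background. All of these regions had been retained by the authors as the 10000 with the largest summed statistic among 145823 CHH regions. Among the CHH regions outside that selection, 63.5% were hypermethylated.

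In most of these regions the level was low in 1 group and raised in the other. Hypermethylated regions had a median of 8.18% in CUMS and 0.214% in Ctrl. Hypomethylated regions mirrored this, with a median of 0.177% in CUMS and 6.02% in Ctrl. The higher level ran from 2.18% to 75.9% in hypermethylated regions and from 2.36% to 62.0% in hypomethylated ones. In 3213 regions (91.6%) the lower group stood under 1%, which put the difference close to the level of the higher group itself.

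**Figure D1:**
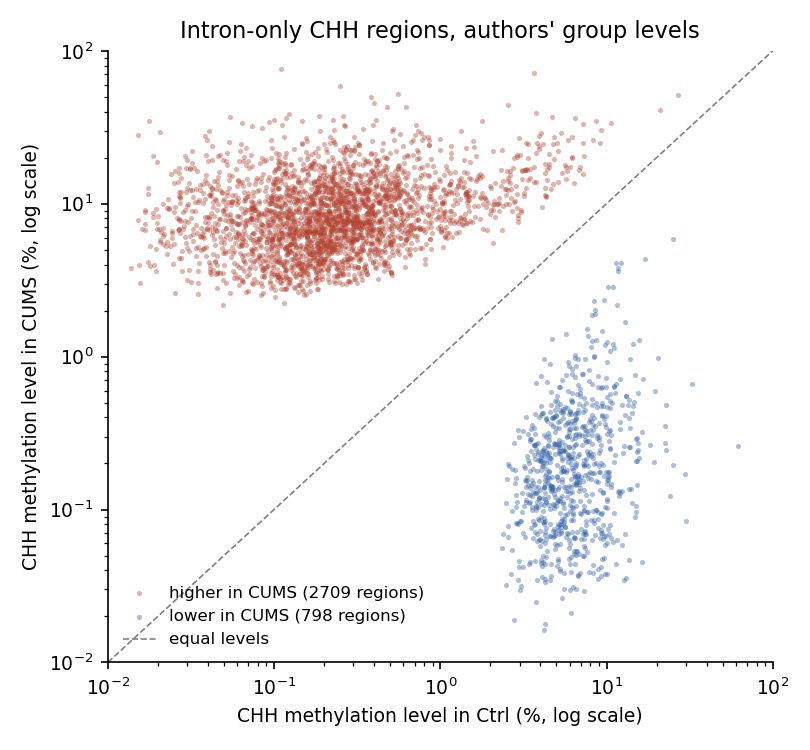
Methylation level of each of the 3507 intron-only CHH regions in Ctrl (x axis, %) and CUMS (y axis, %), both on log scales, with 1 point per region from the authors' group values and a dashed line at equal levels. The 2709 hypermethylated regions lie above the line, mostly under 1% in Ctrl, and the 798 hypomethylated regions below it, mostly under 1% in CUMS.

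Differences were mostly modest in size. The absolute difference had a median of 7.24 points, with quartiles of 5.04 and 10.7 points. A difference of at least 10 points was found in 1022 regions, or 29.1%, against 30.0% of all annotated CHH regions. The share was 31.5% in CHH regions with no gene feature and 19.8% in those with a promoter or exon row, a contrast that could not be tested. Large differences in the intron-only regions went mostly one way, since 924 of the 1022 regions (90.4%) were hypermethylated. This was close to the background, where 2685 of 2997 such regions (89.6%) among all annotated CHH regions were hypermethylated. Put the other way, 34.1% of hypermethylated and 12.3% of hypomethylated intron-only regions reached 10 points. The shares over all annotated CHH regions were 34.2% and 14.5%. Outside the authors' selection 1288 CHH regions reached 10 points, and only 839 of them (65.1%) were hypermethylated.

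Within the intron-only regions, the share of hypermethylated regions was greater among larger differences. It was 64.7% of the 853 regions under 5 points and 75.6% of the 1632 regions from 5 to under 10 points. It reached 89.8% of the 860 regions from 10 to under 20 points and 93.8% of the 162 regions of 20 points or more. The other CHH classes had a similar gradient, from 67.0% to 92.9% with no gene feature and from 68.2% to 93.8% with a promoter or exon row. All 3 classes come from the authors' selection. Outside it the share was 63.5% over all sizes and 65.1% at 10 points or more. At 20 points or more it was 79 of 130 regions. Over the full list of 145823 CHH regions, selected or not, the share was 64.6% at all sizes and 82.2% at 10 points or more. At 20 points or more it was 506 of 588 regions. The outside regions are only those the selection left, so they cannot show where the gradient belongs.

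**Figure D2:**
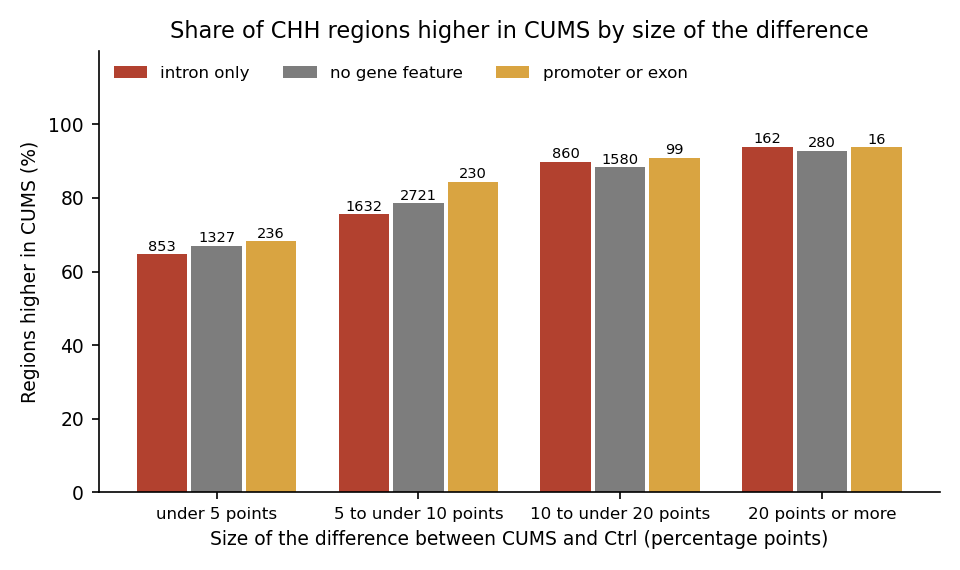
Percent of CHH regions higher in CUMS (y axis) by size of the difference in percentage points (x axis), for intron-only regions, regions with no gene feature and regions with a promoter or exon row, with the number of regions above each bar. In intron-only regions the share ran from 64.7% under 5 points to 93.8% at 20 points or more, and the other classes show the same gradient.

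The leading hypermethylated regions stood under 1% in Ctrl and between 9.05% and 75.9% in CUMS. Kirrel3, which encodes an adhesion molecule of the immunoglobulin superfamily, held the largest difference, 75.9% in CUMS against 0.109% in Ctrl over 87 CHH cytosines (chr8:33310586-33310726). Rasgrp2, a guanine nucleotide exchange factor for Rap GTPases, had 58.5% against 0.250% in a region annotated as an RSINE1 repeat (chr1:203712862-203713083). Vcan, the matrix proteoglycan versican, had 52.5% against 0.555% over 191 cytosines (chr2:20836497-20836890). These 3 regions stood above 50% in CUMS, far from the median of 8.18%.

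Other regions ranked high by the authors' summed statistic, which grows with the number of cytosines as well as with the difference. Ibsp, integrin-binding bone sialoprotein, had 45.5% in CUMS against 0.402% in Ctrl (chr14:5451275-5451732). Itpkb, an inositol trisphosphate kinase, had 42.9% against 0.477% (chr13:92083860-92084206). Sptlc3, a subunit of the enzyme that starts sphingolipid synthesis, had 32.2% against 0.268% in a region with a B1_Mur4 element. Trappc3l, of the TRAPP vesicle transport family, had 24.5% against 0.1997%, and Oprd1, the delta opioid receptor, had 21.6% against 0.259%. The palmitoyltransferase gene Zdhhc14 ranked among them with only 9.05% against 0.0492%, over 357 cytosines.

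Hypomethylated regions had smaller differences but included a few high Ctrl levels. Bbx, an HMG-box gene, had 62.0% in Ctrl against 0.259% in CUMS over 61 CHH cytosines (chr11:50520045-50520296), the fewest in any intron-only region. Zfyve28, a FYVE-domain gene, had 30.1% in Ctrl against 0.0841% in CUMS. Rasgef1b, a guanine nucleotide exchange factor for Ras-family GTPases, had 29.5% against 0.172%. Fbxw7, the substrate-recognition subunit of a ubiquitin ligase, had 25.3% against 0.197%, and Ccnb3, a cyclin gene on chromosome X, had 24.2% against 0.123%. Only 10 hypomethylated regions reached 20 points, compared with 152 hypermethylated ones.

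By the summed statistic the first hypomethylated region was in Runx2, a Runt-family transcription factor of bone, with 0.980% in CUMS against 20.4% in Ctrl over 224 cytosines (chr9:16476502-16476937). Adcy1, a calcium-stimulated adenylyl cyclase of neurons, had 0.205% against 11.05%. Borcs7, a subunit of the lysosome-positioning complex BORC, had 0.226% against 11.3%, and Dennd6a, a DENN-domain gene, had 0.636% against 11.1%. Slc35f1 (0.114% against 10.0%), Clmn (0.245% against 9.15%) and Lrriq4 (0.198% against 7.55%) followed the same form. In Asic2, an acid-sensing ion channel gene, the ranked region had a small difference (1.31% against 4.72%) but spanned 383 cytosines, the most in any intron-only region.

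A minority of regions were methylated in both groups. The lower group stood at 5% or more in 30 regions, of which 29 were hypermethylated and 18 lay in a repeat. The largest such values were in Diaph3, a formin that builds actin filaments, with 51.6% in CUMS against 26.8% in Ctrl in an L1_Rat1 element. Tmem237 had 41.3% against 21.02%, Gpc5, a glypican, had 33.8% against 10.7%, and Erbb4, a receptor tyrosine kinase for neuregulins, had 30.5% against 9.31%. The only hypomethylated region of this kind was in Itpr2, with 5.88% in CUMS against 25.1% in Ctrl. Tmem237, Gpc5 and Erbb4 were singled out after their values were seen.

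The regions were spread over many genes. They fell in 2478 genes, of which 2172 had a symbol, and 66 regions lay in more than 1 gene. A single region was found in 1853 genes, 2 in 384 genes, at least 3 in 241 genes and at least 5 in 56 genes. The 345 regions in genes with at least 5 were 77.7% hypermethylated and 29.6% of them reached 10 points. The corresponding shares in genes with 1 region were 76.9% and 28.4%, so genes with many regions looked like genes with few. Of the 625 genes with 2 or more regions, 331 held only hypermethylated regions, 20 only hypomethylated regions and 274 both. Counts per gene were not scaled to intron length, and the genes with the most regions had them spread over stretches of 379 to 2519 kb.

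Rbms3, an RNA-binding protein gene, and Tenm3, a teneurin that links cells across synapses, led with 11 regions each. The 7 hypermethylated regions of Rbms3 (ENSRNOG00000025881, chr8) ranged from 3.95% to 37.3% in CUMS, with Ctrl at 0.0962% to 1.14%. Its 4 hypomethylated regions ranged from 3.55% to 14.2% in Ctrl, with CUMS at 0.110% to 0.716%. The 2 directions were interspersed along the 815 kb, and the largest difference, 37.3% against 0.187%, was at chr8:116894686-116894998.

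Tenm3 (ENSRNOG00000012802, chr16) held 9 hypermethylated and 2 hypomethylated regions over 2519 kb. Only 1 reached 10 points, with 11.7% in CUMS against 0.138% in Ctrl in an Lx8 element (chr16:43260469-43260736). The other hypermethylated regions stood between 2.18% and 7.88% in CUMS, and the hypomethylated ones at 4.28% and 5.24% in Ctrl. Many regions in this gene thus meant many small differences.

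Cdh12, a neuronal cadherin, and Galntl6, of the glycosyltransferase family that starts mucin-type O-glycosylation, held 8 regions each, all hypermethylated. In Cdh12 the CUMS levels along the gene were 7.49%, 15.4%, 7.68%, 4.89%, 12.04%, 6.55%, 14.5% and 6.91%, while Ctrl stayed between 0.0535% and 0.323%. In Galntl6 they were 6.77%, 6.71%, 6.38%, 5.80%, 10.9%, 11.96%, 3.64% and 5.17%, with Ctrl between 0.0278% and 0.406%. Every region of both genes was therefore under 0.5% in Ctrl and higher in CUMS, and 6 of the 8 in Galntl6 lay in repeats.

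Asic2 and Cdkal1, a tRNA-modifying enzyme gene, were the exceptions among the 16 genes with at least 7 regions, since most of their regions were hypomethylated. Asic2 had 5 hypomethylated regions, with Ctrl levels of 3.27% to 12.9%, and 3 hypermethylated ones, with CUMS levels of 5.50% to 9.72%. Cdkal1 had 4 hypomethylated and 3 hypermethylated regions with wider extremes. A region at chr17:34801697-34801922 had 22.7% in Ctrl against 0.243% in CUMS, and another at chr17:35020231-35020511 had 0.516% in Ctrl against 30.8% in CUMS.

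Most regions of Lsamp, Nrxn3, Pcdh15 and Rbfox1 were hypermethylated. Lsamp, a limbic system adhesion protein, had 5 hypermethylated regions (4.19% to 18.9% in CUMS) and 3 hypomethylated ones (4.17% to 6.54% in Ctrl). Nrxn3, a presynaptic neurexin, had 5 hypermethylated (3.48% to 12.8%) and 2 hypomethylated regions (7.38% and 8.42% in Ctrl). Pcdh15, a protocadherin best known from the hair cells of the ear, had 5 hypermethylated regions at 8.76% to 19.9%, and 4 of its 7 regions reached 10 points. Rbfox1, a neuronal splicing factor, also had 4 of 7 at 10 points, with CUMS levels of 3.50% to 16.9% in its 5 hypermethylated regions.

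The other genes with at least 7 regions showed the same mixture. Trpm3, a cation channel, reached 22.0% in CUMS in the highest of 5 hypermethylated regions, and 6 of its 7 regions lay in repeats. Chrm3, the M3 muscarinic receptor, paired 5 hypermethylated regions (3.95% to 13.9% in CUMS) with 2 hypomethylated ones at 4.27% and 19.3% in Ctrl. Alk, a receptor tyrosine kinase, had 7 hypermethylated regions between 6.11% and 11.7% in CUMS and 1 hypomethylated region, at 13.6% in Ctrl. Auts2l1 had 7 hypermethylated regions, the highest at 27.1%, and 1 hypomethylated region. The genes listed as AABR07044900.1 (10 regions, 7 hypermethylated) and AABR07070307.1 (8 regions, 5 hypermethylated, none at 10 points) complete the 16.

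**Figure D3:**
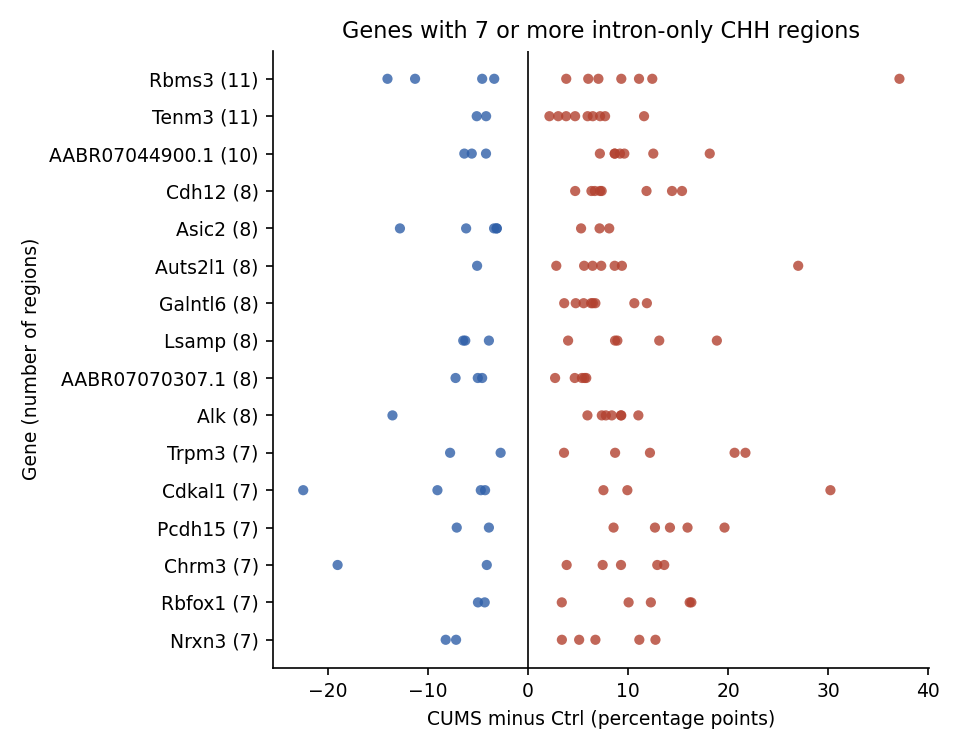
Difference between CUMS and Ctrl in percentage points (x axis) for every region in the 16 genes with at least 7 intron-only CHH regions (y axis, number of regions in brackets), with 1 point per region, red when higher and blue when lower in CUMS. Cdh12 and Galntl6 have points on the right of 0 alone, Asic2 and Cdkal1 have most of theirs on the left, and Rbms3 reaches 37.2 points.

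The authors' longer list allowed a look at the CHH regions in the same stretches that had a smaller summed statistic. Between the first and last region of these 16 genes it held 847 more CHH regions, of which 532 (62.8%) were hypermethylated. The intron-only regions there were hypermethylated in 94 of 130 cases (72.3%). Hypermethylated regions were the majority of the further regions in 15 of the 16 genes, the exception being AABR07070307.1 at 48.6%. The all-hypermethylated pattern of Cdh12 and Galntl6 did not extend to these weaker regions, of which 55.3% and 51.6% were hypermethylated. In Asic2, where most intron-only regions were hypomethylated, 58.6% of the weaker regions were hypermethylated.

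Cacna1c, which encodes the pore subunit of the L-type calcium channel Cav1.2 and was the gene the study followed up, held 3 intron-only CHH regions (ENSRNOG00000007090, chr4). Region chr4:151816217-151816480 had 5.52% in CUMS against 0.669% in Ctrl, and chr4:152297805-152298048 had 13.1% against 0.145%. The third region, chr4:152321046-152321278, went the opposite way, with 0.113% in CUMS against 6.31% in Ctrl. The gene thus had both directions, and the largest difference among these 3 regions was a hypermethylation. The study reported hypomethylated sites in an intron of this gene by methylome sequencing of BMECs from stressed rats. It also reported lower methylation in an intron by methylation-specific PCR in cultured BMECs given homocysteine. By the coordinates in the study's methods, all 3 CHH regions lay within the intronic span it first identified. None overlapped the corrected fragment it used for the PCR. The study's text does not name the cytosine context of its sites, and their relation to these 3 regions beyond position was not tested. Nrcam, a neuronal adhesion molecule, had 2 hypermethylated regions, with 4.94% against 0.193% and 6.14% against 0.159%. No intron-only CHH region was listed for Vcam1, Spp1, Mmp9, Cldn5, Ocln or Tjp1, which the study also measured.

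Genes with hypomethylated regions alone held few regions each. A hypomethylated region was found in 726 of the 2478 genes, and in 452 of them all intron-only regions were hypomethylated. Only 20 of these 452 genes held 2 or more regions. In the 1853 genes with 1 region, 76.9% of regions were hypermethylated, close to the 77.2% of all intron-only regions. The count of 452 thus mostly reflects genes with 1 region. Tafa5, a secreted chemokine-like protein gene, had the most, with Ctrl levels of 4.29%, 2.60% and 6.29% and CUMS levels of 0.0180%, 0.193% and 0.235%. The insulin receptor gene Insr had 2, at 9.10% and 10.4% in Ctrl against 0.177% and 0.175% in CUMS. Runx2 had a second region at 6.15% against 0.214%. Manba, the lysosomal beta-mannosidase, had Ctrl levels of 13.9% and 3.08%, and Lrrk1, a kinase gene, had 5.06% and 12.2%, the latter with 4.08% remaining in CUMS.

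Gene groups were followed by symbol, and each is set beside the 77.2% hypermethylated and 29.1% at 10 points of all intron-only regions. The share of all genes that held a region was not computed. Gene counts per list therefore have no background and do not show enrichment. Of 26 voltage-gated calcium channel genes, 12 held 19 regions, 14 hypermethylated and 5 hypomethylated, with 7 at 10 points. Cacnb2, an auxiliary beta subunit, had 3 regions at 6.36%, 5.58% and 17.5% in CUMS against 0.154%, 0.0909% and 0.279% in Ctrl. Cacng3, an auxiliary gamma subunit, had 1 region of each direction, 6.05% against 0.112% and 1.28% against 8.60%. The hypermethylated share of the family, 73.7%, was close to that of all intron-only regions.

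The list of calcium stores and pumps, which also took in cation channels such as Trpm3, had 14 regions in 6 of 44 genes. Of these regions 10 were hypermethylated. The channel gene Trpm3 alone held 7 of the 14, with 5 hypermethylated and 3 at 10 points. Itpr2, an inositol trisphosphate receptor that releases calcium from the endoplasmic reticulum, had a region at 34.3% in CUMS against 0.0934% in Ctrl. Its 2 other regions were hypomethylated, at 25.1% and 3.45% in Ctrl. Trpc7, a cation channel, had 1 region with 4.01% against 0.0246%.

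Potassium channels held 38 regions in 25 of 94 genes, 30 of them hypermethylated, and 16 (42.1%) reached 10 points. Kcnq5, of the family that carries the M-current, had 5 regions, all hypermethylated, with CUMS levels of 14.7%, 7.65%, 14.2%, 10.5% and 15.6% and Ctrl levels of 0.0292% to 1.32%. Kcnd3, an A-type channel, had 3 hypermethylated regions at 13.1%, 7.73% and 8.46%. Kcnma1, the large-conductance calcium-activated channel, had 2 hypermethylated regions (3.19% and 10.4%) and 1 hypomethylated region (4.50% in Ctrl).

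Glutamate and GABA receptor genes held 31 regions in 17 of 48 genes, 29 of them hypermethylated (93.5%). Their differences were not large, and 7 (22.6%) reached 10 points. Grin2a, an NMDA receptor subunit, had 5.15%, 12.3% and 10.4% in CUMS against 0.778%, 2.56% and 0.291% in Ctrl. Grin2b, another NMDA receptor subunit, had 3 hypermethylated regions at 6.90% to 10.1% and 1 hypomethylated region at 6.28% in Ctrl. Gabrg3, a GABA-A receptor subunit, had 3 hypermethylated regions at 5.43%, 7.47% and 6.03%. These channel and receptor genes are best known from neurons, and the part of cells other than BMECs in the levels was not tested.

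Among the lists, adhesion and guidance genes held the most regions, with no scaling to list size or gene length. Neural adhesion genes had 118 regions in 38 of 64 genes (92 hypermethylated, 30 at 10 points), led by Tenm3, Lsamp and Nrxn3. Cadherins and catenins had 62 regions in 26 of 95 genes (50 hypermethylated, 16 at 10 points). Pcdh9, a protocadherin, had 6 hypermethylated regions at 2.86% to 14.2% in CUMS. Guidance genes had 50 regions in 25 of 72 genes (40 hypermethylated, 13 at 10 points). Epha6, an ephrin receptor, reached 23.4% against 1.60% in 1 of its 5 hypermethylated regions. The ephrin receptor gene Ephb1 had differences of -3.82 to 13.6 points over 6 regions, and Unc5d, a netrin receptor, had 5 hypermethylated regions at 3.72% to 8.51%.

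Focal adhesion and matrix genes had 27 regions in 18 of 56 genes, 23 hypermethylated and 10 (37.0%) at 10 points. Tln2, a talin that couples integrins to actin, had 10.5%, 27.4% and 5.51% in CUMS against 0.262%, 0.797% and 0.216% in Ctrl. Lama2, a laminin chain of basement membranes, had 2 hypermethylated regions (8.26% and 10.6%) and 1 hypomethylated region (3.74% in Ctrl), and Parvb, a parvin, differed by 3.14 and 12.7 points.

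Receptor tyrosine phosphatases had 23 regions in 11 of 21 genes, 17 hypermethylated and 9 (39.1%) at 10 points. Ptprt reached 39.0% in CUMS against 3.76% in Ctrl in a region with an RLTR20A4 element, while 2 of its 5 regions were hypomethylated (6.83% and 13.1% in Ctrl). Ptprm, an adhesive phosphatase, ranged from -9.15 to 17.1 points over 5 regions, and Ptprd from -7.96 to 8.02 points over 4. Phosphodiesterases, which break down cyclic nucleotides, had 21 regions in 10 of 22 genes, 14 hypermethylated and 6 at 10 points. All 3 regions of Pde7b reached 10 points, with 11.7%, 10.7% and 12.1% in CUMS. Pde4d had 3 hypermethylated regions (5.17% to 11.9%) and 2 hypomethylated ones (2.86% and 6.14% in Ctrl), and Pde4b ranged from -7.09 to 5.69 points over 3.

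Of 67 endothelial barrier genes, 10 held 12 regions, 10 of them hypermethylated, and 2 (16.7%) reached 10 points. Marveld2, the tricellular junction protein tricellulin, had 5.52% and 4.03% in CUMS against 0.195% and 0.110% in Ctrl. Flt4, the lymphatic VEGF receptor, had 4.74% and 4.54% against 0.650% and 0.0340%. Cldn10, a claudin, had 1 region at 12.2% against 0.349%. With 12 regions, these shares rest on a handful of values.

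Intron-only CHH regions were also counted in cell type marker genes. Among 14 endothelial markers, 4 held 1 region each. Vwf, von Willebrand factor, had 5.04% in CUMS against 0.295% in Ctrl, Slco1a4, an organic anion transporter of the barrier, had 11.6% against 0.177%, and Tie1 had 7.41% against 1.34%. Tek, the angiopoietin receptor, went the opposite way, with 0.0702% against 9.21%. Of 4 astrocyte markers 2 held a region (Slc1a2 and Aldh1l1), and of 4 neuronal markers 2 did (Rbfox3 with 2 regions, Syt1 with 1), all 5 of these regions hypermethylated at 4.06% to 9.82% in CUMS. The 5 regions are few, and 77.2% of all intron-only regions were hypermethylated. None was listed in 4 pericyte, 3 oligodendrocyte or 4 microglial markers. The share of all genes that held a region was not computed, and counts were not scaled to intron length. The counts therefore do not show a cell type pattern. The values are methylation levels in marker genes and do not measure how many cells of a type were present.

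Repeats covered part of 1704 intron-only regions, or 48.6%. The share was 55.1% in CHH regions with no gene feature and 39.4% in those with a promoter or exon row. Within introns, regions in repeats were 78.5% hypermethylated and regions outside them 76.0%, and 28.1% and 30.1% reached 10 points, so the repeat annotation made little difference to either share. LINE/L1 elements, which move by copying their own RNA, were found in 10.1% of intron-only regions and in 17.9% of regions with no gene feature.

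Repeat classes differed in the size of the difference more than in its direction. LTR/ERVK elements, remnants of endogenous retroviruses, were the most frequent class with 426 regions, of which 35.4% reached 10 points. The shares were 26.6% in 379 SINE/Alu regions, 23.8% in 353 LINE/L1 regions, 21.2% in 255 SINE/B4 regions and 23.3% in 219 LTR/ERVL-MaLR regions. In these 5 classes 76.1% to 80.4% of regions were hypermethylated. Among single families, RMER17C2 (77 regions, 42.9% at 10 points, median higher level 9.74%) and RLTR20A4 (65 regions, 43.1%, 9.44%) stood above ID_B1 (85 regions, 22.4%, 7.63%). Reads from near-identical copies of a repeat can be hard to place, and the effect of that on these levels was not tested.

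**Figure D4:**
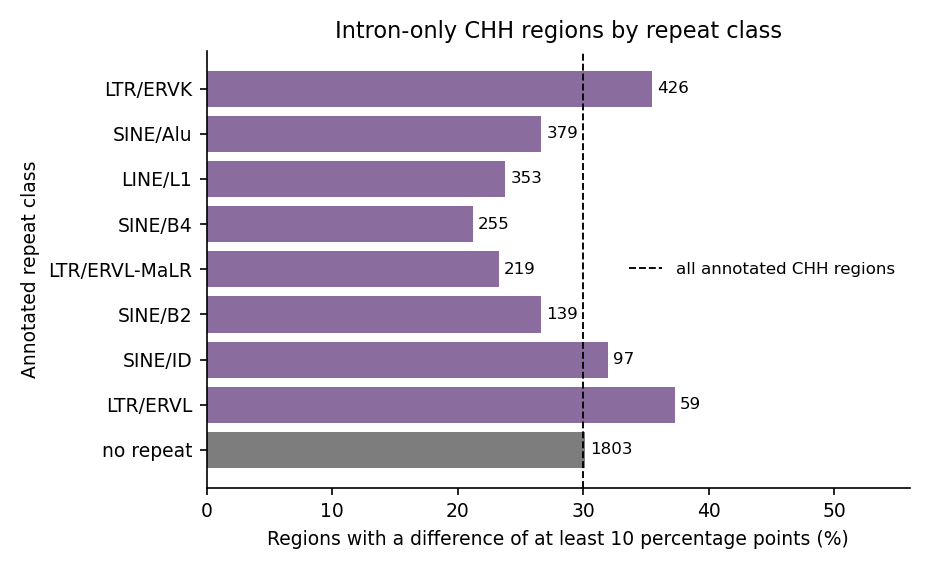
Percent of intron-only CHH regions that reached a difference of 10 percentage points (x axis) in the 8 most frequent repeat classes and in regions with no repeat (y axis), with the number of regions beside each bar and a dashed line at the 30.0% of all annotated CHH regions. LTR/ERVK, LTR/ERVL and SINE/ID lie to the right of the line, regions with no repeat lie at it, and SINE/Alu, LINE/L1, SINE/B4, LTR/ERVL-MaLR and SINE/B2 lie to the left.

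In length and density of CHH cytosines, intron-only regions were close to the other selected CHH regions. The median length was 270 bp (quartiles 241 and 317 bp) with a median of 126 CHH cytosines, or 45.6 per 100 bp. All annotated CHH regions had medians of 274 bp and 44.6 per 100 bp, and CHH regions outside the authors' selection held 34.8 per 100 bp. DNA had been sheared to 200 to 350 bp before sequencing, and 2773 regions (79.1%) had a length in that range. The level varied with length, since the higher group had a median of 8.22% in that range and 4.31% in the 642 longer regions. A difference of 10 points was reached by 33.2% of the former and 10.9% of the latter. Among CHH regions outside the selection 73.8% were under 200 bp, against 2.62% of the intron-only regions. The summed statistic used for the selection grows with the number of cytosines, and the part of fragment length in the levels was not tested.

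**Figure D5:**
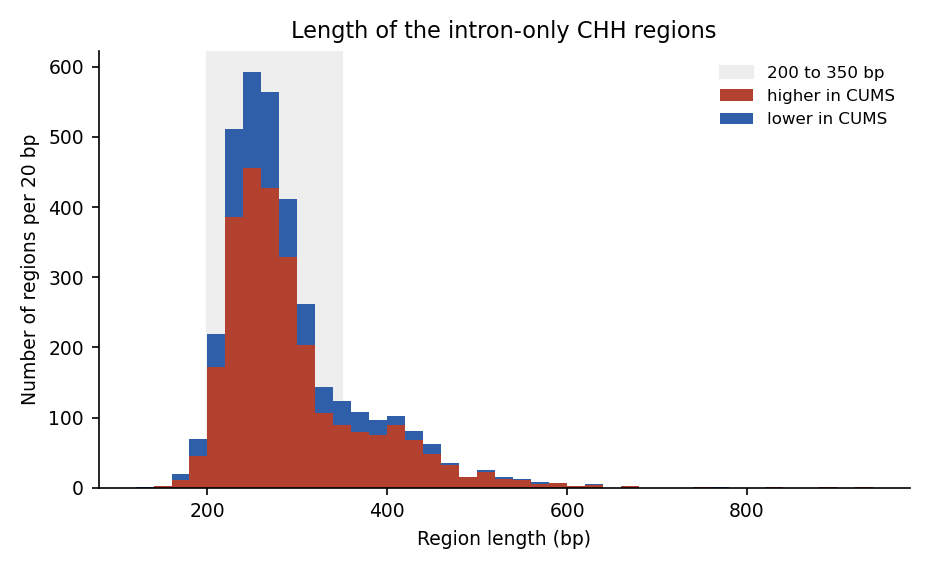
Number of intron-only CHH regions per 20 bp of region length (x axis, bp; y axis, regions), stacked by direction, with the shearing range of 200 to 350 bp in grey. Most regions, 79.1%, fall inside the grey range in both directions, with a shoulder of longer regions to the right.

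The contrast in size with promoter and exon regions was kept in regions of 200 bp or more and was reversed only in shorter ones. From 200 to 350 bp, 33.2% of intron-only regions reached 10 points against 27.2% of those with a promoter or exon row and 35.0% of those with no gene feature. Over 350 bp the shares were 10.9%, 4.43% and 13.2%. Under 200 bp the order was the reverse, with 34.8% of 92 intron-only regions against 71.4% of only 7 with a promoter or exon row, and 52.6% of 133 with no gene feature. Promoter or exon regions were more often over 350 bp (34.9% against 18.3%), and the part of length in the contrast was not tested further.

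Most intron-only regions lay outside CpG islands and their flanks, as did the other CHH regions. Open sea, the sequence outside islands and their flanks, held 3334 regions (95.1%), shelves held 124, shores 95 and islands 5. The open sea share was 94.8% of all annotated CHH regions, 97.5% of those with no gene feature and 65.6% of those with a promoter or exon row. On chromosomes the hypermethylated share ran from 67.3% of 101 regions (chr20) to 83.7% of 104 regions (chr18), with 74.8% of 115 regions on chromosome X.

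Overlap with other cytosine contexts was small. By at least 1 bp, 253 intron-only regions (7.21%) overlapped a listed CHG region, against 19.8% with a promoter or exon row and 6.13% with no gene feature. Of 262 overlapping pairs, 258 had the same direction. So did 119 of 119 pairs with a promoter or exon row and 375 of 375 with no gene feature. In the 262 intron-only pairs the CHH level had medians of 4.87% in the higher and 0.182% in the lower group. The CHG level had 5.57% and 0.0868%. The 4 opposite pairs were in Pcsk5, Acacb, Tbck and Lexm. In Acacb, acetyl-CoA carboxylase beta, CHH stood at 0.570% in CUMS against 10.5% in Ctrl while CHG stood at 6.23% against 0.0244%. Only 19 of the regions overlapping CHG (7.51%) reached 10 points, against 29.1% of all intron-only regions. The overlapping regions were also longer, with a median of 369 bp against 270 bp, and the part of length was not tested. No intron-only region overlapped a listed CG region. With a promoter or exon row 23 CHH regions (3.96%) did, and with no gene feature 7 (0.118%). The intron-only share was thus close to that of regions with no gene feature.

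Regions of the other contexts were also counted over whole genes, where long genes have more room for them. A CG region was listed in 724 of the 2478 genes (29.2%) and a CHG region in 1044 (42.1%). The 1002 CG regions in these genes were 81.7% hypermethylated, against 80.05% of all annotated CG regions and 87.7% of those in any gene. The 1608 CHG regions were 70.7% hypermethylated, against 68.6% and 69.3%. In Rbms3 there were 7 CHG regions, 5 of them hypermethylated, and 2 CG regions, 1 of each direction. Cdh12 held 4 CHG regions, all hypermethylated as its CHH regions were, and no CG region.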

How the data were processed

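Methylomes of 6 samples (3 Ctrl, 3 CUMS) were made with TET2 and APOBEC3A conversion. Per the labels and the study's methods, the authors trimmed reads with fastp 0.20.0, checked them with FastQC 0.11.3, aligned them with Bismark 0.16.3 and Bowtie2 to mRatBN7.2 (rn7) and called regions with DSS. The deposited levels are fractions, 1 for each group and region, combined by the authors, and were multiplied to percent. The deposited areaStat, a score summed over the cytosines of a region, served only to rank regions. The authors' difference column was not used, since differences were taken from the levels. Most CHH regions fall under the minimum difference the methods state.

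Rows of the annotation table were joined by chromosome, start, end and context, with Python 3.11.15 and pandas 2.3.3 (figures: matplotlib 3.10.9), and the scripts were tested on simulated data. No table held values per sample, so the tests over samples that had been planned gave way to description. The study's methods give a range of sequencing coverage over the samples, but the depth at each region is unknown. The average profile over gene bodies was not used here. The members and lists were chosen with earlier results of these data known. The genes named were those the study measured, those with as many regions as the gene in place 12, the 8 regions of each direction with the largest score and the 5 with the largest difference among those with a symbol, the 5 genes with the most hypomethylated regions and no other, and up to 3 genes of each list. A gene and a gene list covered by this rule are not reported here. List sizes count rat RefSeq gene symbols of GRCr8, from which no coordinates were taken. Alternatives covered the size, length, cytosine number, score, repeats, gene overlap, autosomes, joining of neighbours and any intron row.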

Additional observations from a re-analysis of the deposited data

How the results depend on the processing

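The 10 results were recomputed under 9 alternatives. A minimum of 60 cytosines removed no region and says nothing of stability. The other 8 gave 73 comparisons, of which 50 stayed within 1.5 times the reported count or median, or within the 95% Wilson range of a share, and 23 moved. That range treats regions as independent draws, serves only as a yardstick here and is no error of the levels. The hypermethylated share ran from 76.0% to 90.4% and kept its direction under each. With differences of at least 10 points there were 924 hypermethylated and 98 hypomethylated regions (90.4%), 896 genes, 26 with 3 or more regions, 46.9% in repeats, 1.86% over a CHG region, and median higher levels of 14.1% and 13.3%. The part of the regions with the larger score gave 1421 and 321 (81.6%), 1408 genes, 84 with 3 or more, 45.1% in repeats and 4.42% over CHG. Without repeats there were 1371 and 432 regions, 543 at 10 points, 1416 genes, 90 with 3 or more, and 5.16% over CHG. With any intron row, 8.73% overlapped CHG. Each of these settings keeps fewer or other regions, so the counts move by construction. No paired analysis was possible because only 1 level for each group was deposited, with none per sample, and for the same reason no replicate could be left out. Spread between rats, coverage at each region and counting error therefore remain unknown for every level given. The direction of any single region has no replicate check.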

Other observations

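Neighbouring intron-only regions within 1 kb of each other formed 19 pairs, of which 14 had the same direction and 5 opposite directions. All 14 same-direction pairs were hypermethylated. Of all intron-only regions 77.2% were hypermethylated, so agreement in that direction would be common in any set of pairs. Whether neighbours agreed more often than other pairs was not tested. In Cald1, which encodes the actin-binding protein caldesmon, the pair had 12.6% and 27.8% in CUMS against 0.105% and 0.0382% in Ctrl, 251 bp apart. In Nkain1, regions 201 bp apart had 0.0377% in CUMS against 10.1% in Ctrl and 6.73% against 0.440%. In Kdm2b, a histone demethylase gene, regions 110 bp apart had 6.26% against 0.201% and 0.426% against 14.3%. The other opposite pairs were in Galnt17, AABR07053516.1 and AABR07044900.1, where the pair is also listed under the synaptic adhesion gene Lrrtm3. These genes were chosen after their values were seen.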
